A study of Mus musculus with 20 samples.

Results

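The metalloproteases of the matrix and the cell surface, together with their tissue inhibitors, were followed in ventricular RNA of mice after pressure overload. Members were all array probes whose annotated gene symbol is Mmp, Timp, Adam, Adamts or Adamtsl directly followed by a number. This gave 154 of 45281 probes, for 78 of 19057 named genes. The MMP family had 37 probes for 21 genes, the TIMP family 7 probes for 4 genes, the ADAM family 65 probes for 32 genes, the ADAMTS family 39 probes for 17 genes and the ADAMTSL family 6 probes for 4 genes. One probe stood for each of 39 genes, and the other 39 genes had up to 5. The family members Mmp15, Mmp27, Adam19, Adam1a, Adamts2, Adamts5 and Adamtsl5 to Adamtsl7 were not analysed here.

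The study asked whether the DNA methyltransferases Dnmt3a and Dnmt3b of heart muscle cells shape the response of the heart to pressure overload. Male mice were operated at 10 to 12 weeks of age. They received a transverse aortic constriction (TAC), a ligature that narrows the aortic arch, or a sham operation, and ventricles were taken 4 weeks later, at 14 to 16 weeks. Illumina bead chips were hybridised with 1 array per mouse, giving 4 arrays of each genotype after sham and 6 of each after TAC. All mice carried floxed alleles of both Dnmt3a and Dnmt3b. DKO mice also carried Cre recombinase under the promoter of the atrial myosin light chain gene Myl7, whereas CTL mice had no Cre, so that the effects of Cre and of the deletion cannot be told apart. The deletion is limited to cells that use that promoter, and the tissue holds other cell types as well. The strain is not given in the sources used here.

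Matrix metalloproteases (MMPs) are zinc proteases that cut collagens, gelatin, laminins and other matrix proteins, and the tissue inhibitors of metalloproteases (TIMPs) block their active site. ADAMs are mostly membrane-anchored proteases that release the outer part of growth factors, cytokines and receptors from the cell surface, and several of them have lost protease activity. ADAMTS proteases are secreted and cut versican, aggrecan and procollagens, whereas ADAMTS-like proteins share their ancillary domains but lack the protease. In the pressure-loaded heart these families are best known for the turnover of the collagen network around the myocytes.

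Because the deleted enzymes methylate cytosine in the dinucleotide CpG, the 250 bases upstream of the start of members that changed after TAC are shown, with each CpG in capitals. They were taken from the RefSeq table for GRCm38.p6, which matched 48 of the 78 genes with 51 windows. The Timp1 window is chrX:20869916-20870165 on the plus strand, the Timp2 window chr11:118355412-118355661 on the minus strand, and the Adamtsl2 window chr2:27079129-27079378 on the plus strand. The Adamts1 window is chr16:85803114-85803363 on the minus strand, and the Mmp24 window chr2:155775092-155775341 on the plus strand. All are printed 5′ to 3′ on the strand of the gene.
Timp1: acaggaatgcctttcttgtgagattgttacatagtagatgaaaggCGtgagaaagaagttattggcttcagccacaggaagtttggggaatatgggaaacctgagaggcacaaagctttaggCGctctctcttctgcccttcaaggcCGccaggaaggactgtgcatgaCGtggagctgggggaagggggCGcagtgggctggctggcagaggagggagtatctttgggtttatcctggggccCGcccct
Timp2: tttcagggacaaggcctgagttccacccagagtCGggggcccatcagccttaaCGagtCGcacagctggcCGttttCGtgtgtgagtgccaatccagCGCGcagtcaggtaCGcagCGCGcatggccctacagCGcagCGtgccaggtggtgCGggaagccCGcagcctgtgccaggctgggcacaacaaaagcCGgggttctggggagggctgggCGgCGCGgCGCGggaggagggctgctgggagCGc
Adamtsl2: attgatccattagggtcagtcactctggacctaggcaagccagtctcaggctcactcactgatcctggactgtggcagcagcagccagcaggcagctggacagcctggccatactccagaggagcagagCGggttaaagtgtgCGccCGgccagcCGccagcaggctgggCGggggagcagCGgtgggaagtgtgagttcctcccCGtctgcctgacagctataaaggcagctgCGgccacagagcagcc
Adamts1: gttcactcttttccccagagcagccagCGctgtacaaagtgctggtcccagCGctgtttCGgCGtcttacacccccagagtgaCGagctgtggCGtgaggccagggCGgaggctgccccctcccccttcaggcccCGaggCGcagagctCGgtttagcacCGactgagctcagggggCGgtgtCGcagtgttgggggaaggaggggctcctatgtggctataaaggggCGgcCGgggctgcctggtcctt
Mmp24: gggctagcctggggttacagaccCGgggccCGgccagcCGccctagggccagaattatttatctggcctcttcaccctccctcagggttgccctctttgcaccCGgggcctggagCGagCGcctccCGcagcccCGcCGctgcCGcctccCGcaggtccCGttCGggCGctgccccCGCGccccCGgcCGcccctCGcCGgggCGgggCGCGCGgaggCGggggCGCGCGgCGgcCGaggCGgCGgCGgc

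The printed windows held 6 CpG at Timp1, 8 at Adamtsl2, 15 at Adamts1, 21 at Timp2 and 33 at Mmp24. Mmp23 had 2 overlapping windows with 13 and 18 CpG. The median over the 51 member windows was 6 CpG with a range from 0 to 39, and the median over all 32851 windows was also 6, with a range from 0 to 56. The series holds no methylation measurement. On both strands the AP-1 motif TGANTCA was found in 11 member windows (21.6%) against 6.75% of all windows of the same length. These were the windows of Mmp1a, Mmp1b, Mmp3, Mmp7, Mmp10, Mmp12, Mmp13, Mmp20, Adam20, Adam25 and Adam29. None of them belongs to a gene called for the TAC effect, for which a change of more than 1.5-fold was required. Probes of Mmp3 and Mmp13 had an adjusted p under 0.05 for TAC with smaller changes. The TATA motif TATAAA was found in 25.5% of member windows and 12.4% of all, among them those of Adamts1 and Adamtsl2. The GC box GGGCGG was found in 41.2% and 32.7%. Mmp2 and Adam9 had no entry.

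Values are linear intensities after quantile normalization over all 20 arrays. In the deposited table the 8 sham and the 12 TAC arrays had been normalized apart, as their medians of 47.5 and 58.6 and their sorted values show, so that the set and the surgery cannot be told apart. Without the joint normalization the median of all probes differed between TAC and sham by 0.28 in CTL and 0.29 in DKO hearts on the log2 scale. One array, sham CTL replicate 4, stood apart from the other sham arrays. The TAC arrays fell into a set with TAC CTL replicates 1 and 2 and TAC DKO replicates 1 to 4, and a set with TAC CTL replicates 3 to 6 and TAC DKO replicates 5 and 6, and no label names a batch. The probes for Dnmt3a (3) and Dnmt3b (2) were not called for genotype (lowest adjusted p = 0.751), but whether they lie in the deleted exons is not known, so that they check nothing. The cardiomyocyte markers were all above background, with 9 of 10 listed genes measured.

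Of the 154 probes, 62 (40.3%) lay above the median probe, at an intensity of 53.0, where all probes give 50.0%. They named 45 of the 78 genes. By family, all 7 TIMP probes were above it (100%), as were 19 of 37 MMP probes (51.4%), 3 of 6 ADAMTSL probes (50.0%), 17 of 39 ADAMTS probes (43.6%) and 16 of 65 ADAM probes (24.6%). On each of the 20 arrays 35 probes were above the median of the probes, and 26 were below it on every array. A stricter reference was the 95th percentile of 1506 probes for olfactory and vomeronasal receptors, genes with no known role in ventricular muscle, at an intensity of 57.6. It was passed by 46 member probes (29.9%) for 34 genes, against 39.9% of all probes.

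Among the ADAMs, those known from the reproductive tract made up 33 probes for 21 genes, of which 5 probes were above the median probe and 1, for Adam32, above the receptor level. Of the 21 probes for somatic ADAMs 6 were above the median probe, and of the 11 probes for the neural ADAMs, Adam11, Adam22 and Adam23, 5 were. Adam10, the main sheddase of Notch, was at or below the receptor level with both probes, as was Adam12. Both gelatinases were above the median probe. The same held for 4 of 8 collagenase probes, 4 of 6 probes for stromelysins and matrilysin and 5 of 11 probes for membrane-type MMPs. The neutrophil collagenase Mmp8 and the macrophage elastase Mmp12 were at or below the receptor level. Of the proteoglycan-cleaving ADAMTSs 8 of 10 probes were above the median probe, whereas the procollagen N-proteinases Adamts3 and Adamts14 had none above it.

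The brightest probes of the families, by mean log2 intensity, were those for Timp3 (10.81), Mmp2 (10.22), Adam15 (8.95), Adamtsl4 (8.80) and Adamts9 (8.79). Brightness depends on the probe as well as on the RNA, so these values are not an order of abundance.

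**Figure D1:**
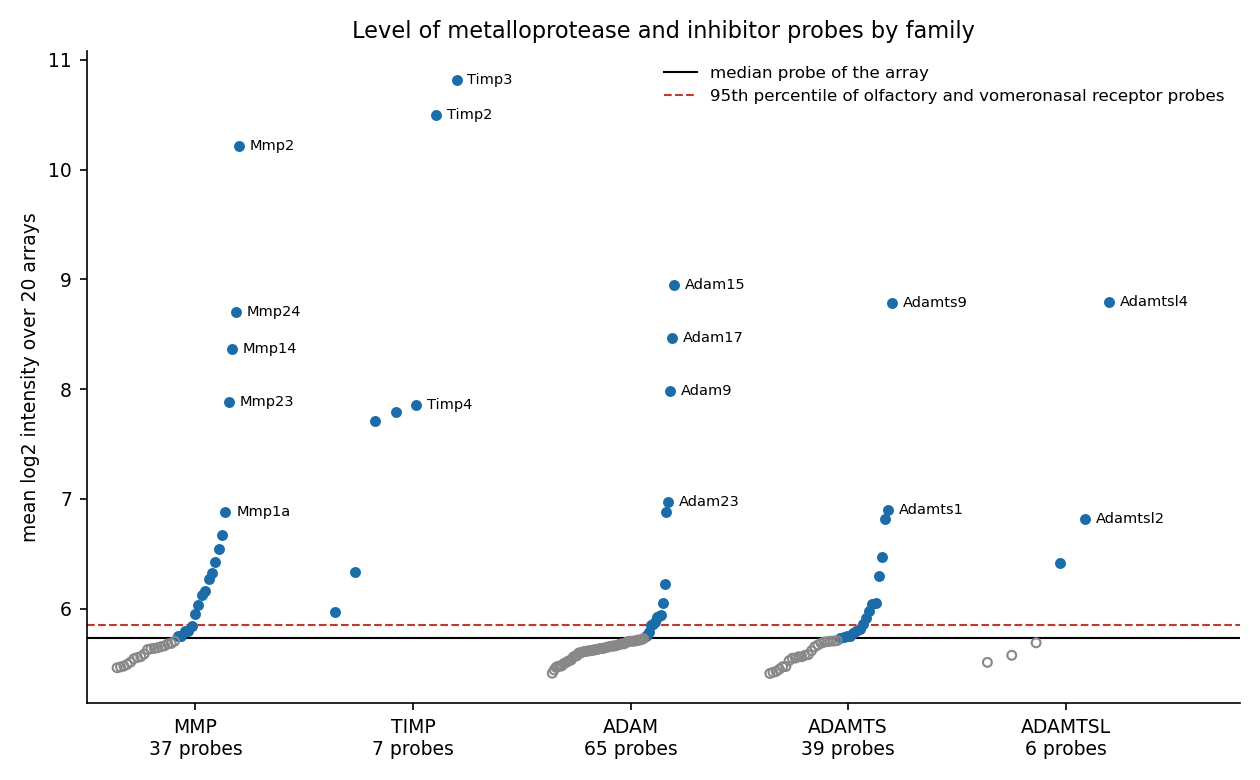
Mean intensity over the 20 arrays (log2 scale) of each of the 154 member probes, by family, with 1 point per probe and lines at the median of all 45281 probes and at the 95th percentile of the receptor probes. All 7 TIMP probes lie above the median probe, and 16 of the 65 ADAM probes do.

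The TAC effect was tested within each genotype. The call required a limma p under 0.05 after Benjamini-Hochberg adjustment over all 45281 probes, together with a change of more than 1.5-fold. In CTL hearts 8 member probes were called, which is 5.19% of the members against 5.17% of all probes. Of them 6 were higher and 2 lower after TAC, where 1.76% and 3.4% of all probes passed in these directions. In DKO hearts 9 were called, which is 5.84% against 6.74% of all probes, with 6 higher and 3 lower, against 2.46% and 4.27% of all probes. The called share of the members was thus near that of the array. The median effect over the members was -0.00 in CTL and 0.01 in DKO hearts on the log2 scale, and that of all probes was 0.01 and 0.02.

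The called probes were spread over the families. Timp1, Timp2, Mmp2, Mmp23 and Adamtsl2 were higher after TAC, and Adam9 and Adamts1 were lower, in CTL and in DKO hearts. Mmp24 was called lower in DKO hearts alone, and the difference of its effect between the genotypes did not pass the test (interaction -0.13, 95% interval -0.52 to 0.25). By family, 3 of 7 TIMP probes, 2 of 37 MMP probes in CTL and 3 in DKO hearts, 1 of 65 ADAM probes, 1 of 39 ADAMTS probes and 1 of 6 ADAMTSL probes were called. No called probe lay below the median probe. Above it, 12.9% of the members were called in CTL and 14.5% in DKO hearts, against 10.3% and 13.5% of all probes above it. Both contrasts rest on separate mice, and no member was called for the interaction of genotype and surgery. Among probes that passed the adjusted p, the one just inside the fold limit, 0.58 on the log2 scale, was Timp2 at 0.64 in CTL hearts, and the one just outside was Mmp24 at -0.54. In DKO hearts Mmp24 at -0.68 was just inside and Adam23 at 0.58 just outside.

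**Figure D2:**
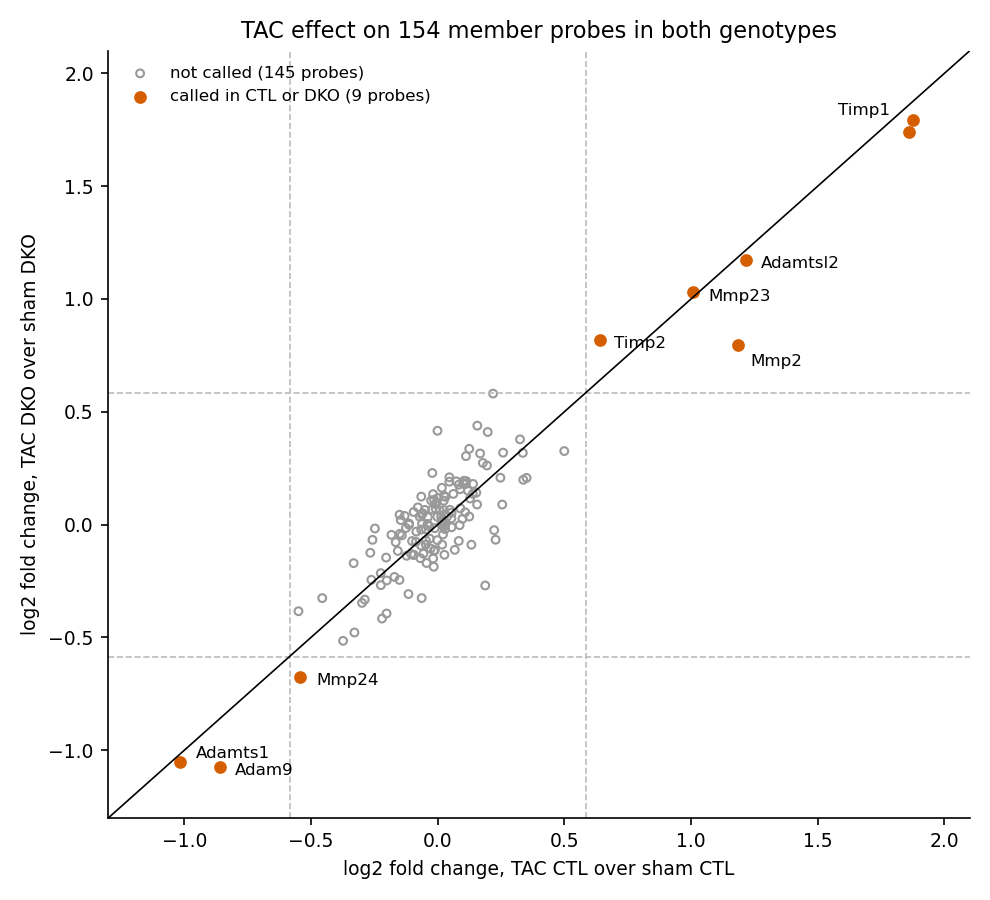
TAC effect in CTL hearts (horizontal axis) and in DKO hearts (vertical axis), as log2 fold change of TAC over sham, for the 154 member probes. The 9 probes called in at least 1 genotype are named, the dashed lines mark a 1.5-fold change, and the remaining 145 probes lie around 0.

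Timp1, the secreted inhibitor of most MMPs, had the largest rise among the members in both genotypes. Its probe ILMN_3103896 read 84.7, 116, 86.8 and 92.3 on the sham CTL arrays and 169 at the lowest, 377 at the median and 712 at the highest of the TAC CTL arrays. In the DKO hearts it read 90.8, 115, 128 and 124 after sham and 201, 394 and 593 (lowest, median, highest) after TAC. Sham and TAC arrays did not overlap in either genotype, and the TAC arrays were spread widely. Timp1 rose 3.67-fold in CTL hearts (log2 1.88 ± 0.32 SE, n = 4 and 6, limma adjusted p = 0.000118) and 3.47-fold in DKO hearts (log2 1.79 ± 0.32 SE, limma adjusted p = 0.000141). The second Timp1 probe, ILMN_2769918, rose 3.63-fold and 3.34-fold, and in DKO hearts its call was lost in the TAC set without TAC CTL replicate 1 (log2 1.16, limma adjusted p = 0.0543).

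Timp2, which inhibits MMPs and also takes part in the activation of proMMP2 at the cell surface, rose less. It read 1232, 1263, 1155 and 886 on the sham CTL arrays and 1291, 1782 and 2271 (lowest, median, highest) on the TAC CTL arrays. After sham the DKO arrays read 1135, 1100.3, 1121 and 751, and after TAC 1658, 1767 and 1993. The groups did not overlap, but the lowest TAC CTL array was close to the highest sham CTL array. The rise was 1.56-fold in CTL (log2 0.64 ± 0.13 SE, limma adjusted p = 0.00101) and 1.76-fold in DKO hearts (log2 0.82 ± 0.13 SE, limma adjusted p = 5.23e-05). In CTL hearts the fold fell under 1.5 without sham CTL replicate 4 (log2 0.52), without TAC CTL replicate 1 (0.56), on the deposited values (0.47) and with median centring of the arrays (0.16).

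Timp3, the matrix-bound inhibitor that also blocks ADAM17, was not called. Its brightest probe ranged from 1508 to 2224 on the sham CTL arrays, from 1568 to 2268 after TAC in CTL and from 1567 to 2245 after TAC in DKO hearts, so that the groups overlapped. The log2 difference was 0.10 in CTL and 0.03 in DKO hearts. The dimmer Timp3 probe ILMN_1232928 was at -0.30 in CTL and -0.35 in DKO hearts, under the fold limit (limma adjusted p = 0.0162 and 0.00443), and in DKO hearts its TAC arrays, from 46.9 to 60.2, lay below its sham arrays, from 62.5 to 81.6. The third, ILMN_2614759, was at -0.20 and -0.39 (limma adjusted p = 0.356 and 0.042), and with median centring it was called lower in DKO hearts (-0.61). Timp4, the TIMP best known for its expression in heart muscle, read 408, 279.9, 305 and 304 on the sham CTL arrays and 140.4, 214 and 332 (lowest, median, highest) on the TAC CTL arrays. In the DKO hearts it read 334, 302, 167 and 217 after sham and 99.7, 218 and 271 after TAC. Sham and TAC arrays overlapped in both genotypes, and the differences of -0.55 and -0.38 did not pass the test (limma adjusted p = 0.142 and 0.294). On the deposited values Timp4 was called lower in CTL hearts (log2 -0.72, limma adjusted p = 0.0135), and with median centring in CTL (-1.02) and in DKO hearts (-0.83).

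Mmp2, gelatinase A, which cuts denatured collagen and basement membrane collagen, rose in both genotypes. It read 815, 756, 727 and 698 on the sham CTL arrays, and on the TAC CTL arrays 1037 at the lowest, 1886 at the median and 2450.0 at the highest. In DKO hearts the sham arrays read 1003, 709, 961 and 709, and the TAC arrays 1235, 1400 and 1841 (lowest, median, highest). No TAC array was within the range of the sham arrays of its genotype. The rise was 2.28-fold in CTL (log2 1.19 ± 0.20 SE, limma adjusted p = 9.09e-05) and 1.73-fold in DKO hearts (log2 0.79 ± 0.20 SE, limma adjusted p = 0.00368). The difference between the genotypes was -0.39 on the log2 scale, with a 95% interval from -0.97 to 0.19, and did not pass. With median centring the rise in DKO hearts was 0.32 and not called.

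Mmp9, gelatinase B, ranged from 58.3 to 72.7 after sham and from 61.4 to 88.9 after TAC in CTL hearts. Its differences of 0.25 in CTL and 0.21 in DKO hearts did not pass (limma adjusted p = 0.0521 and 0.0913). Mmp14, the membrane-type MMP that activates proMMP2 together with Timp2, ranged from 223 to 417 on the sham CTL arrays, from 168 to 561 after TAC in CTL and from 233 to 634 after TAC in DKO hearts. The sham arrays lay inside the range of the TAC arrays, and the differences were 0.11 and 0.19 for the brighter of its probes.

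Mmp23, an MMP that lacks the hemopexin domain of its relatives, read 145, 156, 129 and 180.3 on the sham CTL arrays and 212, 328 and 367 (lowest, median, highest) on the TAC CTL arrays. In the DKO hearts it read 154, 155, 153 and 166 after sham and 275, 327 and 379 after TAC. The TAC arrays lay above the sham arrays in both genotypes. The rise was 2.01-fold in CTL (log2 1.01, limma adjusted p = 2.18e-06) and 2.04-fold in DKO hearts (log2 1.03, limma adjusted p = 1.12e-06). With median centring the rise in CTL hearts was 0.58, under the fold limit.

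Mmp24, a membrane-type MMP known from the nervous system, read 525, 508, 505 and 783 on the sham CTL arrays with its brightest probe, and 344, 395 and 440.1 (lowest, median, highest) after TAC. In DKO hearts it read 464, 543, 455 and 569.9 after sham and 250.3, 326 and 405 after TAC. All TAC arrays lay below all sham arrays of their genotype. Mmp24 fell in DKO hearts by 0.68 on the log2 scale (± 0.13 SE, limma adjusted p = 0.000359), and the difference in CTL hearts, -0.54 ± 0.13 SE, was under the fold limit (limma adjusted p = 0.00362). In the TAC set without TAC CTL replicate 1 the DKO difference was -0.41 and not called. The CTL difference was called on the deposited values (-0.72), with median centring (-1.02) and with a term for the TAC sets (-0.60). The other probes of its 4 did not show a fall of this size. Probe ILMN_1257978, below the receptor level on all arrays, was slightly lower in CTL hearts (-0.15, limma adjusted p = 0.0491). Over all 4 probes the effects ranged from -0.54 to 0.26 in CTL and from -0.68 to 0.32 in DKO hearts.

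The stromelysin Mmp3 had 3 probes, with effects from 0.19 to 0.50 in CTL and from -0.27 to 0.33 in DKO hearts, none past the fold limit. In CTL hearts ILMN_2704576 (0.34) and ILMN_2753809 (0.50) passed the adjusted p (limma adjusted p = 0.00252 and 0.044). The latter was called higher in CTL hearts without TAC CTL replicate 6 (0.595) and with a term for the TAC sets (0.588). In the TAC set with TAC CTL replicate 1 it was called in CTL (0.65) and DKO hearts (0.60). The collagenase Mmp13 had 3 probes from -0.25 to 0.05 in CTL hearts and from -0.11 to 0.21 in DKO hearts. Its probe at 0.21, ILMN_2799267, passed the adjusted p in DKO hearts but not the fold limit (limma adjusted p = 0.0403).

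Adamtsl2, a secreted ADAMTS-like glycoprotein that binds fibrillin and a latent TGF-beta binding protein, read 71.5, 69.6, 64.9 and 69.8 on the sham CTL arrays and 104, 160.3 and 220.0 (lowest, median, highest) on the TAC CTL arrays. In the DKO hearts it read 67.1, 70.3, 71.6 and 64.0 after sham and 95.4, 146 and 252 after TAC. The sham arrays lay close together and the TAC arrays spread, with no overlap. Adamtsl2 rose 2.33-fold in CTL (log2 1.22 ± 0.23 SE, limma adjusted p = 0.00036) and by 1.17 ± 0.23 SE on the log2 scale in DKO hearts (limma adjusted p = 0.000398). The other ADAMTS-like genes were not called. Adamtsl4, which binds fibrillin microfibrils, was at 0.02 and -0.09. The brightest probe of Adamtsl3 was at 0.34 and 0.32, under the fold limit (limma adjusted p = 0.0112 and 0.0134).

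Adam9, a membrane-anchored sheddase, read 408, 398, 364 and 308 on the sham CTL arrays and 162, 215 and 247 (lowest, median, highest) on the TAC CTL arrays. In the DKO hearts it read 396, 369, 408 and 388 after sham and 145, 192 and 231 after TAC. Every TAC array lay below every sham array. Adam9 fell by 0.86 ± 0.13 SE on the log2 scale in CTL (limma adjusted p = 2.34e-05) and by 1.07 ± 0.13 SE in DKO hearts (limma adjusted p = 8.74e-07). Adam17, the enzyme that releases TNF-alpha, had 2 probes with effects of -0.26 and -0.15 in CTL and -0.24 and -0.25 in DKO hearts, under the fold limit. The first, ILMN_2594718, passed the adjusted p in both genotypes (limma adjusted p = 0.0378 and 0.044), and ILMN_1243942 in DKO hearts (0.0419). With median centring ILMN_2594718 was called lower in CTL (-0.74) and DKO hearts (-0.73), and ILMN_1243942 in DKO hearts (-0.60). Adam10 probe ILMN_2460257 was at -0.29 in CTL and -0.33 in DKO hearts, under the fold limit (limma adjusted p = 0.00122 and 0.000212). The other Adam10 probe was at -0.10 and -0.07, and the means of both were at or below the receptor level. The brightest of 5 probes for Adam15 was at 0.16 in CTL and 0.44 in DKO hearts, the latter under the fold limit (limma adjusted p = 0.00591). Its probes disagreed in DKO hearts, with ILMN_2551988 at 0.30 and ILMN_2718144 at -0.31, under the fold limit (limma adjusted p = 0.000623 and 0.00217). On the deposited values ILMN_2551988 was called higher in DKO hearts (0.62).

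Adamts1, a secreted protease of versican and aggrecan, was called with 1 of its 3 probes. Probe ILMN_1230129 read 109, 116, 124 and 119.9 on the sham CTL arrays and 53.6, 58.1 and 61.9 (lowest, median, highest) on the TAC CTL arrays. In the DKO hearts it read 138, 127, 114 and 121 after sham and 44.7, 63.3 and 71.4 after TAC. The groups did not overlap, and 6 of the 12 TAC arrays, 3 of 6 in each genotype, were above the receptor level. The fall was 1.02 on the log2 scale in CTL (limma adjusted p = 1.87e-07) and 1.05 in DKO hearts (limma adjusted p = 7.71e-08). These were the smallest p values among the members.

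The other Adamts1 probes did not show this size of change. Probe ILMN_2761082, which was above the receptor level on all 12 TAC arrays, ranged from 97.2 to 124 on the sham CTL arrays, from 91.3 to 139 after TAC in CTL and from 113 to 164 after TAC in DKO hearts. Its effects were 0.12 and 0.15, with limma adjusted p = 0.497 and 0.34. Probe ILMN_1238495, below the receptor level on all TAC arrays, was lower as well, at -0.22 in both genotypes, under the fold limit (limma adjusted p = 0.0267 and 0.028). A fall past the fold limit therefore rests on 1 probe. Which transcripts the probes report is not known here.

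**Figure D3:**
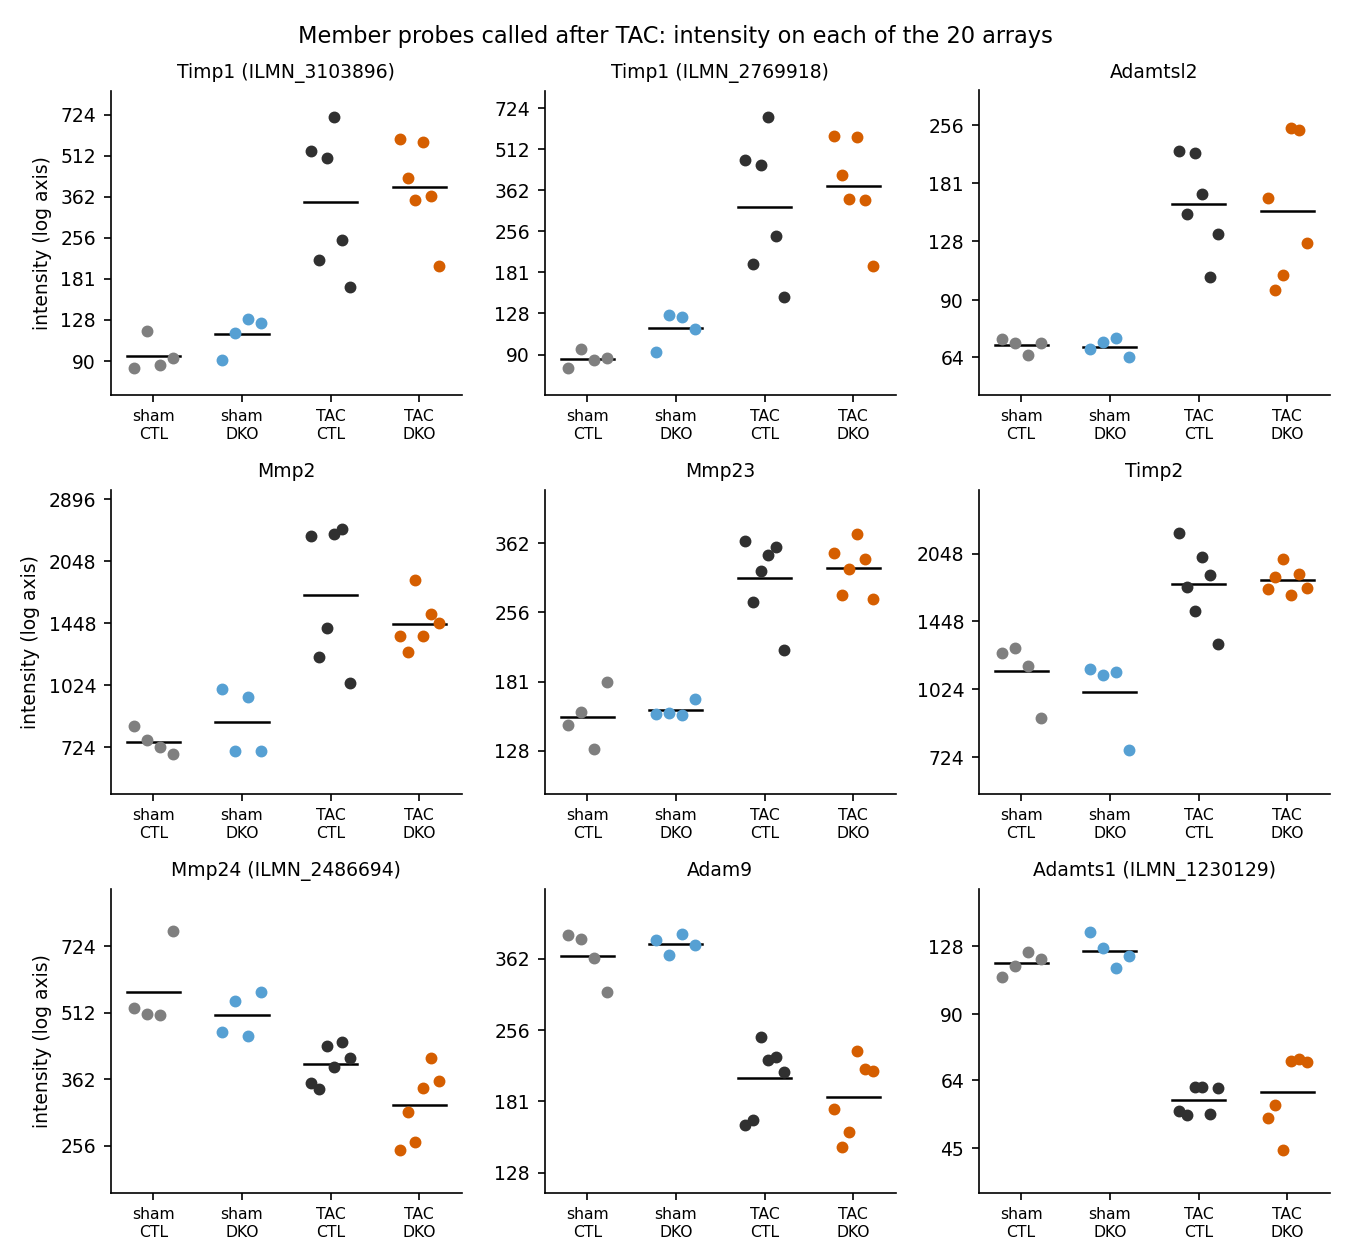
Normalized intensity (log axis) on every array, by group, for the 9 member probes called for the TAC effect, with 1 point per array and a bar at the mean of the log2 values. The 6 probes higher after TAC and the 3 lower ones show no overlap between sham and TAC arrays within a genotype. They were picked for this difference, and the share of all probes without overlap was not counted.

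Other proteoglycan-cleaving ADAMTSs had adjusted p values under the threshold with folds under the limit. Adamts9, which cuts versican, ranged from 439 to 667 on the sham CTL arrays and from 346 to 451 on the TAC CTL arrays with its brighter probe. The effects of that probe were -0.46 in CTL and -0.33 in DKO hearts (limma adjusted p = 0.00186 and 0.0188). On the deposited values it was called lower in CTL hearts (-0.63), and with median centring in CTL (-0.94) and DKO hearts (-0.80). Adamts4 was at -0.33 and -0.48 (limma adjusted p = 0.00897 and 0.000232), with its mean at or below the receptor level. Adamts12, known to cut Comp, was at 0.20 and 0.41 with its brightest probe (limma adjusted p = 0.0225 in DKO hearts).

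The genotype effect was tested within each surgery. In sham hearts 0 of the 154 members were called, against 0.102% of all probes, and 6 had an unadjusted p under 0.05 in limma. In TAC hearts 0 were called, against 0.144% of all probes, and 15 had an unadjusted p under 0.05. These are 3.90% and 9.74% of the members, where all probes gave 5.55% and 8.99%. The effects ranged from -0.38 to 0.38 in sham and from -0.31 to 0.50 in TAC hearts on the log2 scale, and the lowest adjusted p was 0.856 and 0.115. For the members with the strongest TAC effect the intervals of the genotype difference in TAC hearts included 0. They ran from -0.41 to 0.78 for Timp1 probe ILMN_3103896, from -0.60 to 0.13 for Mmp2, from -0.49 to 0.37 for Adamtsl2, from -0.16 to 0.30 for Mmp23, from -0.22 to 0.28 for Timp2, from -0.36 to 0.11 for Adam9 and from -0.14 to 0.25 for the called Adamts1 probe. The interval of Mmp24, -0.55 to -0.06, did not include 0, but the adjusted p was 0.43. Differences of 1.5-fold between the genotypes lay inside the interval for Timp1 and for Mmp2, and outside it for Adamtsl2, Mmp23, Timp2, Adam9 and Adamts1.

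**Figure D4:**
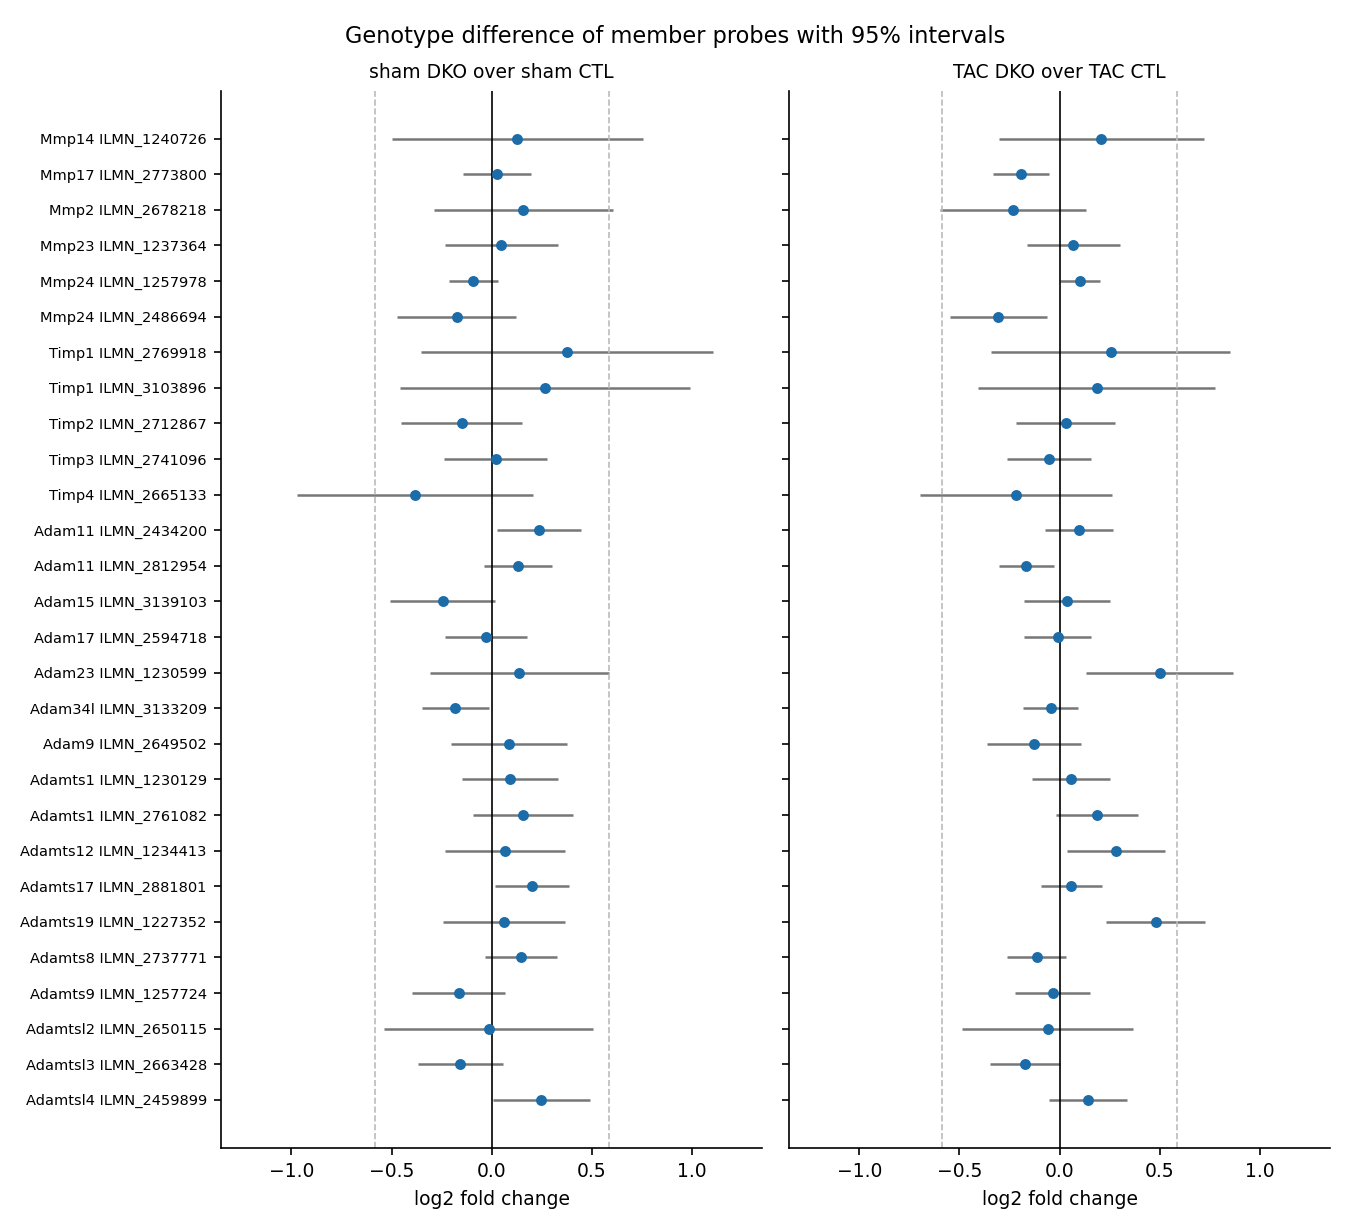
Genotype effect, DKO over CTL, on the log2 scale with 95% intervals from limma for 28 named member probes, in sham hearts and in TAC hearts. The dashed lines mark a 1.5-fold change, and no probe was called in either panel.

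The member with the lowest p for genotype was Adamts19, a protease known from heart valves. It read 65.8, 65.1, 45.8, 63.8, 58.4 and 60.4 on the TAC CTL arrays and 96.1, 95.9, 92.1, 104, 59.3 and 61.9 on the TAC DKO arrays. TAC DKO replicates 1 to 4 were high and replicates 5 and 6 lay among the TAC CTL arrays. The difference was 0.48 on the log2 scale (95% interval 0.23 to 0.73, limma adjusted p = 0.115), against 0.06 in sham hearts. The high arrays were the TAC DKO arrays of the set that also holds TAC CTL replicates 1 and 2, where the difference was 0.57. In the other set it was 0.10. TAC CTL replicates 1 and 2 read 65.8 and 65.1, where the other TAC CTL arrays ranged from 45.8 to 63.8. The genotype difference thus varied between the sets, and the part of the set in it was not tested. The second Adamts19 probe, below the receptor level, was at 0.01.

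Adam23, a neural ADAM without protease activity that acts in adhesion, read 96.0, 139, 119.9, 111, 123 and 122 on the TAC CTL arrays and 165, 288, 235, 111, 121 and 143 on the TAC DKO arrays. TAC DKO replicates 2 and 3 were the highest, replicates 1 and 6 also lay above the TAC CTL arrays, and replicates 4 and 5 lay among them. The difference was 0.50 (95% interval 0.13 to 0.86, limma adjusted p = 0.38). TAC DKO replicates 2 and 3 also had the highest levels of the 6 atrial markers, with a mean log2 level of 1.60 and 2.14 relative to the mean of all arrays, where the other TAC arrays ranged from -0.66 to 0.38. Of these markers Myl7 was at the receptor level. Stard10 was called higher in DKO hearts after sham (1.12) and TAC (0.91) with 1 of its 2 probes. Nppa was called higher after TAC in CTL (2.24) and DKO hearts (1.32). The mean of the list thus also varies with genotype and surgery. Without TAC DKO replicates 2 and 3 the difference of Adam23 was 0.18. The part of atrial tissue in it was not tested.

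**Figure D5:**
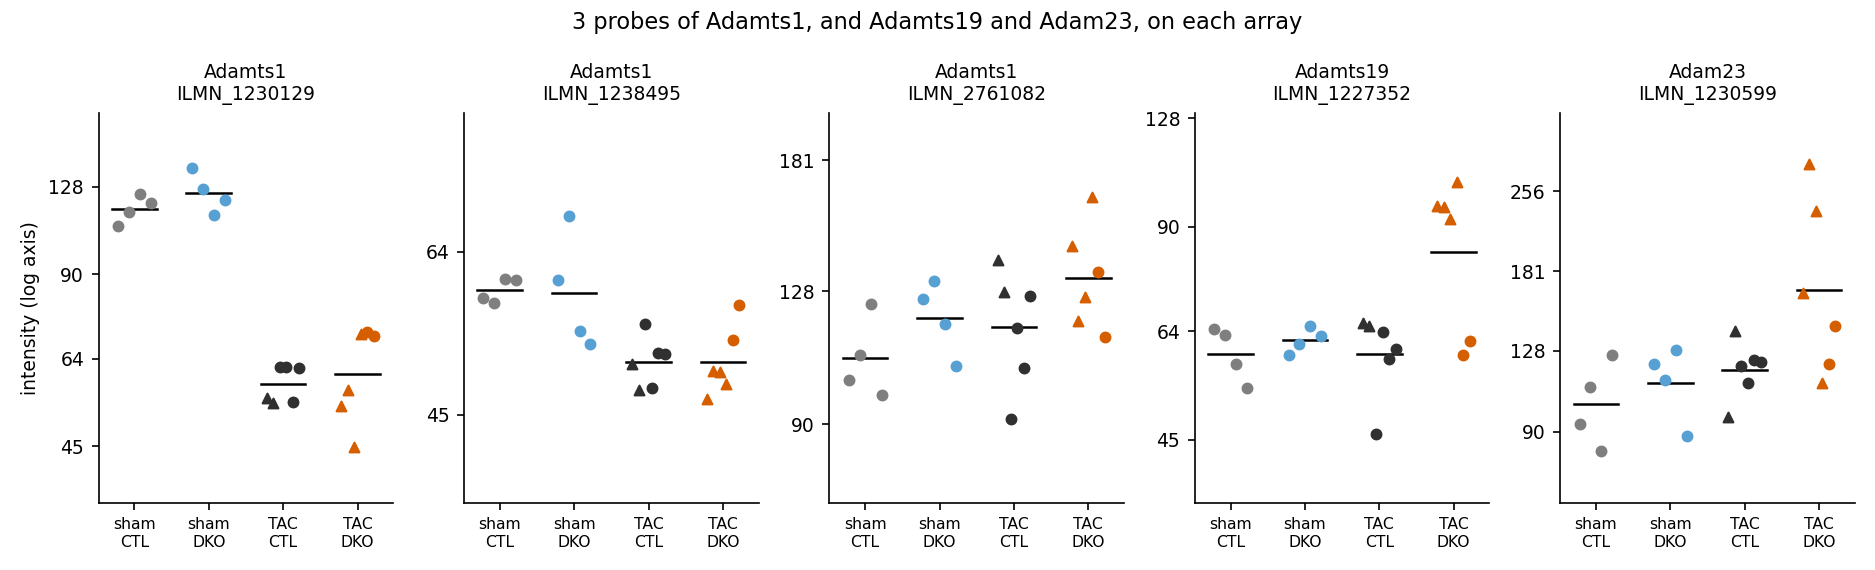
Normalized intensity (log axis) on every array, by group, for the 3 Adamts1 probes, Adamts19 and Adam23, with triangles for the TAC arrays of the set that holds TAC CTL replicate 1. The Adamts1 probes differ in their TAC effect, and the high TAC DKO arrays of Adamts19 are all triangles.

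For the interaction of genotype and surgery 0 members were called, against 0.00221% of all probes, and 10 had an unadjusted p under 0.05 in limma (6.49%, against 4.71% of all probes). The values ranged from -0.46, a probe of Mmp3, to 0.42, Adamts19, and the lowest adjusted p was 0.939. For Timp1 the interval was -1.02 to 0.85 on the log2 scale, and for Mmp23, the called member with the smallest SE next to Adamts1, it was -0.35 to 0.38.

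Proteins that work with these families were described from lists of genes, counted by gene. A gene of these and of the marker lists counted as called where at least 1 of its probes was called. Of the other protease inhibitors 6 of 7 listed genes were measured, 4 of them at or below the receptor level, and 0 were called for the TAC effect. Of the plasminogen system and the activators of proMMPs 11 of 13 were measured, 6 of them at or below the receptor level. In CTL hearts 0 were called, while 1 of 3 probes of Pcsk6, a proprotein convertase, was higher in DKO hearts (0.80). Among other metzincins and their enhancers, Pcolce, the enhancer of procollagen C-proteinase, rose in both (0.90 and 0.99). Pcolce2 rose in DKO hearts with 1 of its 2 probes (0.60). Of the 9 partners of ADAM10 and ADAM17 Tspan17 rose in both, with 0.90 and 0.65 in CTL and 1.01 and 0.73 in DKO hearts for the called ones among its 3 probes.

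Of the substrates shed by ADAMs 12 of 14 were measured. Hbegf, a ligand of the EGF receptor, was higher in CTL hearts with 1 of its 2 probes (0.91), and Notch1 was lower in both (-0.83 and -1.02). Egf differed by genotype with 1 of its 2 probes, by -0.94 in sham hearts (limma adjusted p = 0.0085) and -0.94 in TAC hearts (limma adjusted p = 0.000443), while the members that shed such ligands were not called for genotype. Of the matrix substrates 11 of 12 were measured, and 3 rose and 1 fell in CTL hearts, with 4 and 1 in DKO hearts. Comp, a cartilage matrix protein, rose by 3.20 and 1.83 with its probes in CTL and by 2.96 and 1.65 in DKO hearts. Col1a1 rose by 1.56 and 1.17, and Fn1 by 1.08 and 1.06 with 1 of its 4 probes. Col3a1, named after its values were seen, fell with 1 of its 2 probes, by 0.81 and 1.05.

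In bulk tissue, fewer cells of a type and less RNA per cell cannot be told apart, so markers of the cells that make these proteins are given beside the TAC effects. Of the 9 measured cardiomyocyte markers 5 fell in both genotypes and 1, Mybpc3, rose in CTL hearts. Pln, a regulator of the calcium pump, fell by 1.64 in CTL and 1.93 in DKO hearts. The cardiac actin Actc1 fell by 1.33 and 1.49 with 1 of its 2 probes. The summed intensity of this list ranged from 146126 to 155188 on sham CTL, 146785 to 156474 on sham DKO, 135349 to 152341 on TAC CTL and 134931 to 145783 on TAC DKO arrays. All 11 fibroblast markers were measured. Of them 3 rose (Col1a1, Lum and Mfap5) and 2 fell (Dpt and Col3a1) in CTL hearts, while in DKO hearts 4 rose and 3 fell, and Postn was at the receptor level. Their summed intensity ranged from 8890.4 to 11197 on sham CTL, 9306 to 11384 on sham DKO, 9006 to 13276.5 on TAC CTL and 8455 to 11282.5 on TAC DKO arrays. All 8 smooth muscle and pericyte markers were measured, with Cnn1 at the receptor level. Their sum ranged from 9999 to 12035 on sham CTL and 8972 to 9825 on sham DKO arrays, and from 12730 to 18138 on TAC CTL and 12361 to 17582 on TAC DKO arrays, without overlap. In this list 2 genes were called higher in CTL and 4 in DKO hearts. Myh11 rose by 1.32 in CTL and 1.45 in DKO hearts with 1 of its 2 probes. The sum of 4 red blood cell genes ranged from 15234 to 31980 on sham CTL and from 39371 to 48863 on TAC CTL arrays, and from 24773 to 42213 on sham DKO and from 45846 to 52686 on TAC DKO arrays. All sums use the brightest probe of each gene. Among the 4 probes of Hbb-bt, ILMN_1236718 and ILMN_1239117 rose in both genotypes, while ILMN_1235372 fell (-1.29 in CTL and -1.86 in DKO hearts). Of 10 endothelial markers 3 fell in CTL hearts and 0 in DKO hearts. Of the neutrophil markers 0 of 6 were called, and 3 of them were at or below the receptor level. Of 9 macrophage markers, the complement gene C1qb rose in both (0.83 and 0.66), Adgre1 fell in DKO hearts (-0.94, 1 of its 3 probes), and 1 probe of Lyz2 fell in both (-1.58 and -1.84) while another rose in CTL hearts (0.83). The macrophage sums overlapped, with 2052 to 3312 on sham CTL and 2236 to 3579 on TAC CTL arrays. The part of these cell types in the changes of Timp1, Mmp2 and the other members was not tested.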

How the data were processed

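RNA from the ventricles of 20 mice was hybridised to Illumina bead chips. The deposited table holds linear intensity values for 45281 probes, which the authors made with GenomeStudio 2010.3, as named in the submitters' processing notes. How they corrected background and normalized the values is not given in the sources used here. Sorted values were equal within 0.2% for at least 97.5% of probes between sham arrays and at least 99.9% between TAC arrays, but for at most 0.413% between the sets. The number of arrays limits the precision.

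Groups were taken from the sample labels. Probe symbols came from the platform annotation. Of the probes, 34885 named 1 gene, 18 several and 10378 none, and for 34807 the symbol was updated by gene identifier, including all 154 members. The log2 values, with no constant added, were quantile normalized jointly for all 20 arrays. One coefficient per group was fitted by limma 3.58.1 in R 4.3.3 over the whole array (residual degrees of freedom 16, prior 6.64), and the script was tested on simulated data. Contrasts were genotype within each surgery, TAC within each genotype, and their interaction. Called probes had a Benjamini-Hochberg adjusted p under 0.05 over all probes and a fold over 1.5. SE and intervals are those of limma. Named were all called members, all probes of a list of better known members, the 3 members of lowest unadjusted p in each comparison that involves genotype, the 3 brightest of each family, and up to 3 called genes of each other list. Dpt and the other markers or substrates named past these 3 were chosen after their values were seen. The members and gene lists were chosen with earlier results of these data known. Promoter windows came from a RefSeq table for GRCm38.p6. A search of protein motifs was planned and not run. Alternatives covered the normalization, an offset of 16, dim probes, the fit, the fold limit, the replicate number and each array left out. Added after seeing the data were the split of the TAC arrays and the removal of both arrays with high atrial markers.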

Additional observations from a re-analysis of the deposited data

Results flagged for a closer look

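In each group of 4 or 6 arrays, for 55 named probes of 33 genes, the array farthest from the others was compared with the range of its group. In 18 of 220 groups the gap was beyond Dixon's limit, where chance flags about 1 in 20 groups. Sham CTL replicate 4 was low for Adam10 (50.3) and high for Mmp24 (783), replicate 2 was low for Adam15 probe ILMN_2551988 (44.4) and high for Mmp3 probe ILMN_2753809 (88.4), and replicate 1 was high for Adamts12 (109). Sham DKO replicate 4 was low for Adam15 probe ILMN_3139103 (341), Adamts4 (51.2) and Timp2 (751) and high for Mmp23 (166), and replicate 3 was high for Adamts8 (63.5). Among TAC CTL arrays, replicate 2 was high for Adam12 (57.1) and Adam17 (374), and replicate 3 was low for Adamts19 (45.8) and high for Mmp3 probe ILMN_2899041 (157). Among TAC DKO arrays, replicate 2 was high for Adamts9 probe ILMN_1254543 (87.1), replicate 4 was high for Adamts9 probe ILMN_1257724 (477) and low for Mmp17 (69.6), and replicate 6 was high for Adamtsl4 (616). No cause was tested.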

How the results depend on the processing

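Over 32 alternatives no called member changed direction, and 0 members were called for genotype or for the interaction. In CTL hearts, members called higher after TAC went from 6 to 15 with no minimum fold, and members called lower from 2 to 5 on the deposited values, 6 with median centring, 17 with no minimum fold and 4 with the replicate block. In DKO hearts, members called higher went from 6 to 11 on the deposited values and 21 with no minimum fold, and members called lower from 3 to 9 with median centring and 18 with no minimum fold. The calls that were lost were those of Timp2 in CTL hearts (from 0.64 to 0.16 with median centring, 0.47 on the deposited values and 0.55 in the other TAC set) and in DKO hearts (0.34 with median centring), Mmp2 in DKO hearts (0.32) and Mmp23 in CTL hearts (0.58) with median centring, and Mmp24 (-0.41) and Timp1 probe ILMN_2769918 (1.16) in DKO hearts in the other TAC set. The cause was not tested.

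Over all probes, median centring gave 186 higher and 3848 lower in CTL hearts, where 798 and 1541 were called, and 204 and 4166 in DKO hearts, where 1116 and 1934 were called. On the deposited values 901 were higher and 1886 lower in CTL hearts, and 1494 and 2207 in DKO hearts. With no minimum fold these were 5308 and 4636 in CTL and 6964 and 5729 in DKO hearts. The TAC set with TAC CTL replicate 1 gave 1275 higher in CTL hearts, and the other set 711 higher in DKO hearts. For genotype in TAC hearts, 115 higher and 28 lower were called with no minimum fold, 38 and 4 in the set with TAC CTL replicate 1, 3 lower in the other set, and 4 lower with the compared groups alone and with a trended, robust fit. The interaction had 1 probe higher with that fit, with the replicate block and with a term for the TAC split, 2 without the arrays of high atrial markers, and 0 lower in either TAC set.

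Leaving out 1 array at a time gave, for all probes, 709 to 885 higher and 1435 to 1606 lower in CTL, and 1020 to 1288 and 1834 to 2051 in DKO hearts. For members it gave 5 to 7 higher and 2 to 3 lower in CTL, and 6 to 7 and 3 in DKO hearts. For genotype it gave 51 to 65 and 5 to 10 in TAC hearts and 29 to 44 and 1 to 9 in sham hearts, and for the interaction 0 to 1 in each direction. Mmp24 was called lower in CTL hearts without sham CTL replicate 2 (-0.60) and without replicate 3 (-0.60), and Adam23 higher in DKO hearts without sham DKO replicate 1 (0.62) or 3 (0.65) and without TAC DKO replicate 4 (0.70), 5 (0.67) or 6 (0.63).

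The 26 pairs of arrays with the same replicate number had correlations from -0.19 to 0.38, with a median of 0.02 against -0.00 for different numbers. Of the 20 arrays, 9 correlated best with their own number, and the number expected by chance was not worked out. Whether the replicate numbers pair some of the arrays was not tested. With the replicate block, members called were 7 higher and 4 lower in CTL and 7 and 3 in DKO hearts. The calls gained with the block were those of Mmp24 (-0.64), Timp4 (-0.75) and Mmp3 probe ILMN_2753809 (0.71) in CTL and of Adam23 (0.65) in DKO hearts.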
